A study of Mus musculus with 48 samples.

Results

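The late step of induced browning was examined in preadipocytes that lack HMGN1 and HMGN2, by comparing 3 RNA-seq libraries taken at day 9 with 3 taken at day 6. These 6 libraries, chosen by the genotype and day in their labels, are 6 of the 48 of the series, whose other libraries cover WT cells, earlier days and mouse embryonic fibroblasts. The preadipocytes came from inguinal white adipose tissue (iWAT) of C57BL/6 mice that were, per the study's methods, 8 to 12 weeks old, and the DKO (double knockout) mice were Hmgn1-/- and Hmgn2-/-. The schedule for preadipocytes of both genotypes was 4 days of differentiation medium with insulin, dexamethasone, IBMX, T3 and rosiglitazone, and then 4 days of maintenance medium with insulin and T3. These 8 days fall short of day 9, and the study names its days as days of induced browning or differentiation. Counted from the first day of differentiation medium, day 6 and day 9 would both fall after its 4 days. The medium each library was in when taken is not stated. The labels call the day 6 cells differentiating preadipocytes and the day 9 cells brown-like adipocytes. The 6 WT libraries of the same days (3 per day) are used to test whether this step differs between the genotypes. The labels do not say whether the 3 libraries of a group came from separate mice or from separate dishes, and the p-values measure the spread between these libraries.

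In the course of browning, white preadipocytes that receive an adipogenic mixture leave the cell cycle, dismantle much of their collagen-rich matrix, fill with lipid droplets and gain mitochondria. A part of them then expresses Ucp1, whose product lets protons leak across the inner mitochondrial membrane so that fuel is burnt for heat. IBMX and beta-adrenergic agonists drive this programme through cyclic AMP, rosiglitazone through PPARG, and T3 through thyroid hormone receptors. HMGN1 and HMGN2 are small nucleosome-binding proteins that loosen the association of linker histone with chromatin.

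The targeted genes were checked first. Hmgn2 (chromosome 4, 133964738 to 133968650, minus strand, mm10) had at most 1 count in any of the 6 DKO libraries, against 103, 117 and 106 CPM (counts scaled to the size of the library) in the WT libraries of day 6. Hmgn1 (chromosome 16, 96120618 to 96127729, minus strand) kept 89.7, 96.9 and 88.2 CPM at day 6 and 75.5, 73.7 and 84.2 at day 9. Its log2 fold change, -0.23 ± 0.07 (standard error, as for all log2 fold changes here), was not called (adjusted p = 0.079, edgeR quasi-likelihood test with Benjamini-Hochberg adjustment). WT libraries had 112, 113 and 106 CPM of Hmgn1 at day 6 and 80.6, 78.3 and 77 at day 9. Counts per gene cannot show which exons the Hmgn1 reads come from, so Hmgn1 does not check the label. The study's methods report that DKO cells lack transcripts of the deleted exons and both proteins. The libraries held 21384313 to 24979490 counts at day 6 and 23023529 to 26739850 at day 9. Adipocyte markers were abundant at both days, with 14911, 17792 and 15966 CPM of Fabp4 at day 6 and 18334, 16347 and 21694 at day 9. The summed level of 15 macrophage markers was 2734 to 6610 CPM at day 6 and 1770 to 4178 CPM at day 9, with each of the 15 above 3 counts in at least 1 of the 6 libraries, and it was lowest in replicate 2 at both days. Epithelial and lymphocyte markers summed to under 1 CPM in each of the 6 libraries. The summed levels of a pair of low sets of markers were higher at day 9 without overlap. The 8 mesothelial markers summed to 1.23 to 4.95 CPM at day 6 and 6.63 to 11.9 CPM at day 9, and the 6 Schwann cell markers to 10.1 to 21.9 and then 25.7 to 29.8 CPM, with 1 marker of each set called higher. The Schwann cell markers did not rise as a set, since of 5 tested 3 had a positive and 2 a negative log2 fold change (median 0.04). Endothelial markers summed to 10.4 to 14.6 and 11.4 to 13.2 CPM, and skeletal muscle markers to 3.19 to 5.28 and 2.62 to 9.18 CPM. Of the endothelial markers Tek was called higher and Egfl7 lower (log2 fold changes 1.44 and -1.90). Of the skeletal muscle markers Acta1 was called higher (1.94). The part of these cells in the matrix, contractile and progenitor results was not tested. The day 9 library of replicate 2 stood apart from the others of its day. It had 292 genes at least 2-fold away from the day 9 median (197 above, 95 below), against 58 and 45 in replicates 1 and 3, and its 18 collagens summed to 26192 CPM against 14516 and 11948. Several of the results that rest on this library are given with and without it.

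Between day 6 and day 9, 1412 of 14558 tested genes were called different, 987 higher and 425 lower at day 9. Calling a gene took a 1.5-fold difference and an adjusted p below 0.05. These calls make up 9.70% of the tested genes (6.78% higher and 2.92% lower), and the median log2 fold change over all tested genes was 0.01. The counts of called members of each gene list below are to be read beside these shares. Fold changes reached 4-fold in 185 of the higher and 61 of the lower genes. All 1412 genes had day 6 and day 9 libraries that did not overlap, as did 38.8% of all tested genes, and went 1 way in all 3 same-numbered pairs, as did 61.6% of all. The first principal component of the 6 libraries (56.0% of the variance) separated the days, and the second (20.7%) set both libraries of replicate 2 apart. Since same-numbered libraries deviated together, the test was also run with the replicate number as a block. It then called 2266 genes (15.6%), 1541 higher (10.6%) and 725 lower (4.98%), among them 976 of the 987 and 424 of the 425. Limma-voom with quantile normalization called 828 higher and 604 lower, a less uneven split. The count fell to 831, 826 and 566 without day 6 replicates 1, 2 and 3, and to 813 without day 9 replicate 1, and it was 1339 without day 9 replicate 2, the library that stands apart.

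**Figure D1:**
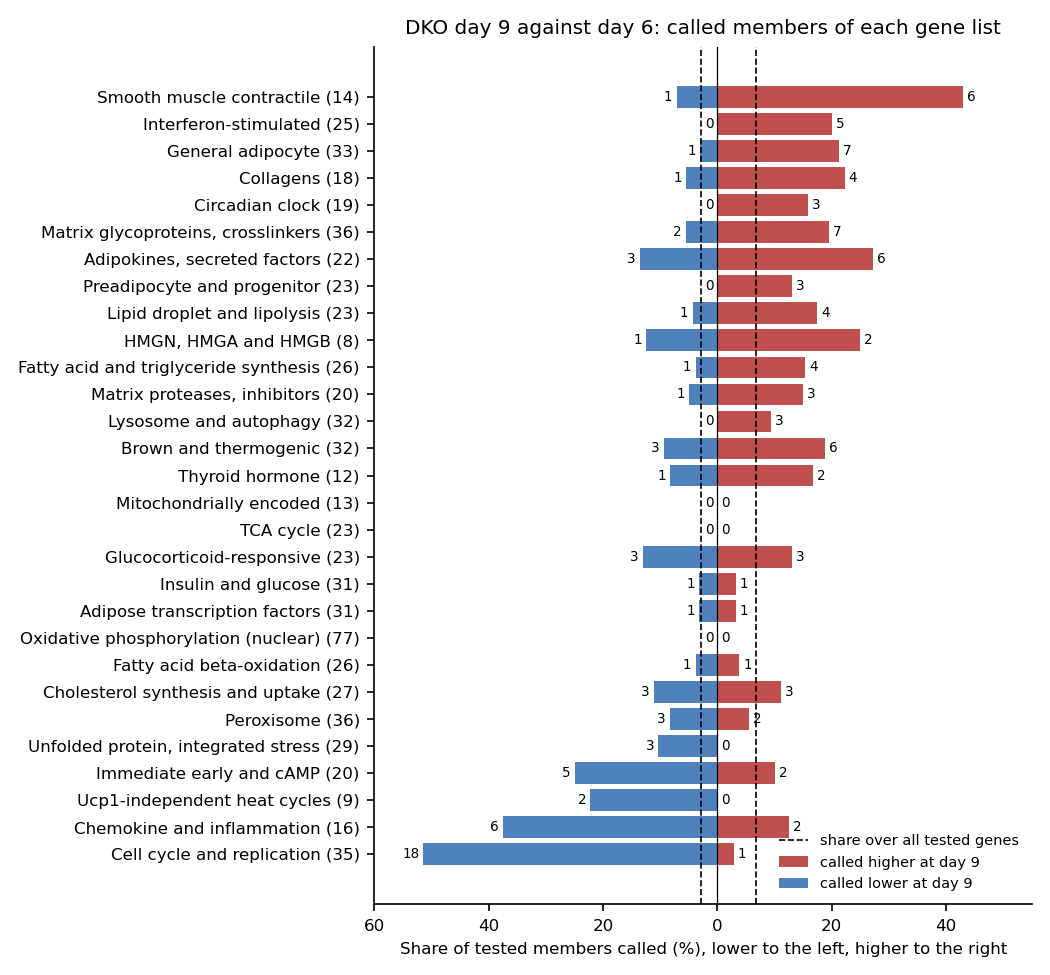
Bars give the share of the tested members of each of 29 gene lists (number tested in brackets) that were called higher (red, right) or lower (blue, left) at day 9 in DKO cells, with the number called at the end of each bar. Dashed lines mark the shares over all 14558 tested genes, 6.78% higher and 2.92% lower, and cell cycle genes reach farthest to the left (18 of 35) while contractile genes reach farthest to the right (6 of 14).

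The thermogenic genes went both ways. Of 32 tested brown and thermogenic genes, 6 were called higher and 3 lower, and the median log2 fold change was -0.04. Ucp1 had 44.4, 58.7 and 49.5 CPM at day 6 and 27.4, 14.4 and 47.6 at day 9. It was thus lower at day 9 in each same-numbered pair, but replicate 3 hardly differed, and the difference was not called (log2 fold change -0.77 ± 0.38, adjusted p = 0.217, edgeR). It was called without day 9 replicate 3, at a log2 fold change of -1.28 and an adjusted p of 0.0428. Ppargc1a, the coactivator that drives mitochondrial biogenesis, had 36.6, 40.2 and 51.6 CPM at day 6 and 31, 28 and 34.7 at day 9, without overlap, and was also not called (-0.46 ± 0.15, adjusted p = 0.0771). Ppara, a nuclear receptor for fatty acids, had 65.6, 69 and 109 CPM and then 46.1, 33.6 and 73.6 CPM and was called lower only with the replicate block (adjusted p = 0.00136 against 0.199 without it). Cidea, Elovl3 and Cox7a1, which mark brown adipocytes, had log2 fold changes of 0.48 ± 0.64, 0.29 ± 0.15 and 0.09 ± 0.22 (adjusted p = 0.652, 0.221 and 0.816). Cidea varied most between the libraries, with 70.1, 43.3 and 110.4 CPM at day 6 and 101, 28.4 and 185 at day 9. In this gene replicate 2 was the lowest of its group at both days.

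Of the thermogenic genes called higher, Ucp3, a relative of Ucp1 found in muscle and brown fat, had 1.19, 1.10 and 1.06 CPM at day 6 and 4.90, 5.55 and 5.88 at day 9, and it rose by 2.28 ± 0.18 on the log2 scale (adjusted p = 0.00184, edgeR). Acot2, a mitochondrial acyl-CoA thioesterase, rose from 26.9 ± 6.41 to 60.9 ± 9.99 CPM (SD, n = 3 per day). Adrb3, the beta-adrenergic receptor of fat cells, rose from 37 ± 2.11 to 56.8 ± 6.87 CPM (adjusted p = 0.0125), although it was not called without day 6 replicate 1 or 3 or day 9 replicate 2 (adjusted p up to 0.0545). Otop1, Fgf21 and Acot11 were the other genes of the list called higher, at log2 fold changes of 1.81, 0.77 and 0.81, each from a level under 4 CPM at day 6. Among the genes called lower, Dio2, the deiodinase that converts T4 to active T3, fell from 8.13, 11 and 11 CPM to 2.35, 1.07 and 2.08 CPM (-2.45 ± 0.29, adjusted p = 0.0052). The Dio2 libraries of the 2 days were far from overlapping. Cited1, a transcriptional coregulator used as a beige marker, had 6.58, 6.60 and 5.28 CPM at day 6 and 1.06, 0.444 and 0.951 at day 9 (adjusted p = 0.00415). Esrrg, an orphan nuclear receptor of oxidative tissues, fell by 2.35 on the log2 scale from 2.31 ± 0.872 CPM, a call that was lost without day 6 replicate 1 or 3 or day 9 replicate 1 (adjusted p up to 0.0961). With the replicate block, 6 genes of the list were called higher and 6 lower. Without 1 library the numbers were 2 to 5 and 2 to 5, the fewest of both without day 6 replicate 1 or 3. A pair of enzymes of heat production without Ucp1 were also lower at day 9, namely Alpl, a phosphatase of the creatine cycle (12.2, 15.2 and 9.64 CPM at day 6 and 2.11, 2.49 and 2.59 at day 9, adjusted p = 0.00229), and Pm20d1, which makes N-acyl amino acids (-1.39 ± 0.26, adjusted p = 0.0171). They were the only genes called (edgeR) among 9 of that kind, whose median log2 fold change was -0.23. That median was 0.31 without day 6 replicate 1, and it was 0.41 in WT cells. The call of Pm20d1 was lost without any 1 of the 3 day 6 libraries or day 9 replicate 1 (adjusted p up to 0.0622).

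The promoter of Dio2 is shown because Dio2 is the only one of the 8 called thermogenic genes with a promoter in the RefSeq table that held the full cyclic AMP response element TGACGTCA (searched on both strands). The element is in capitals, its first base 95 bases before the start, in the 250 bases upstream of the start (chr12:90739039-90739288, minus strand, mm10, sequence from RefSeq, GRCm38.p6), and 1.8% of the 27025 genes with a promoter in that table hold it in this window.
Dio2: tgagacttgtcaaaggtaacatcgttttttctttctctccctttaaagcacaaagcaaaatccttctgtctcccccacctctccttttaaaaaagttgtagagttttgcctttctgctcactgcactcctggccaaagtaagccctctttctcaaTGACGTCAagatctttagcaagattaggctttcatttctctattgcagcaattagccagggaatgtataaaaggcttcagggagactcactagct
Neither the called genes nor the 16 others of the list with a promoter held the DR1 consensus, the direct repeat to which PPAR and RXR bind, and 11 of the 27025 genes did. A match of letters describes the sequence and is not evidence of binding.

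**Figure D2:**
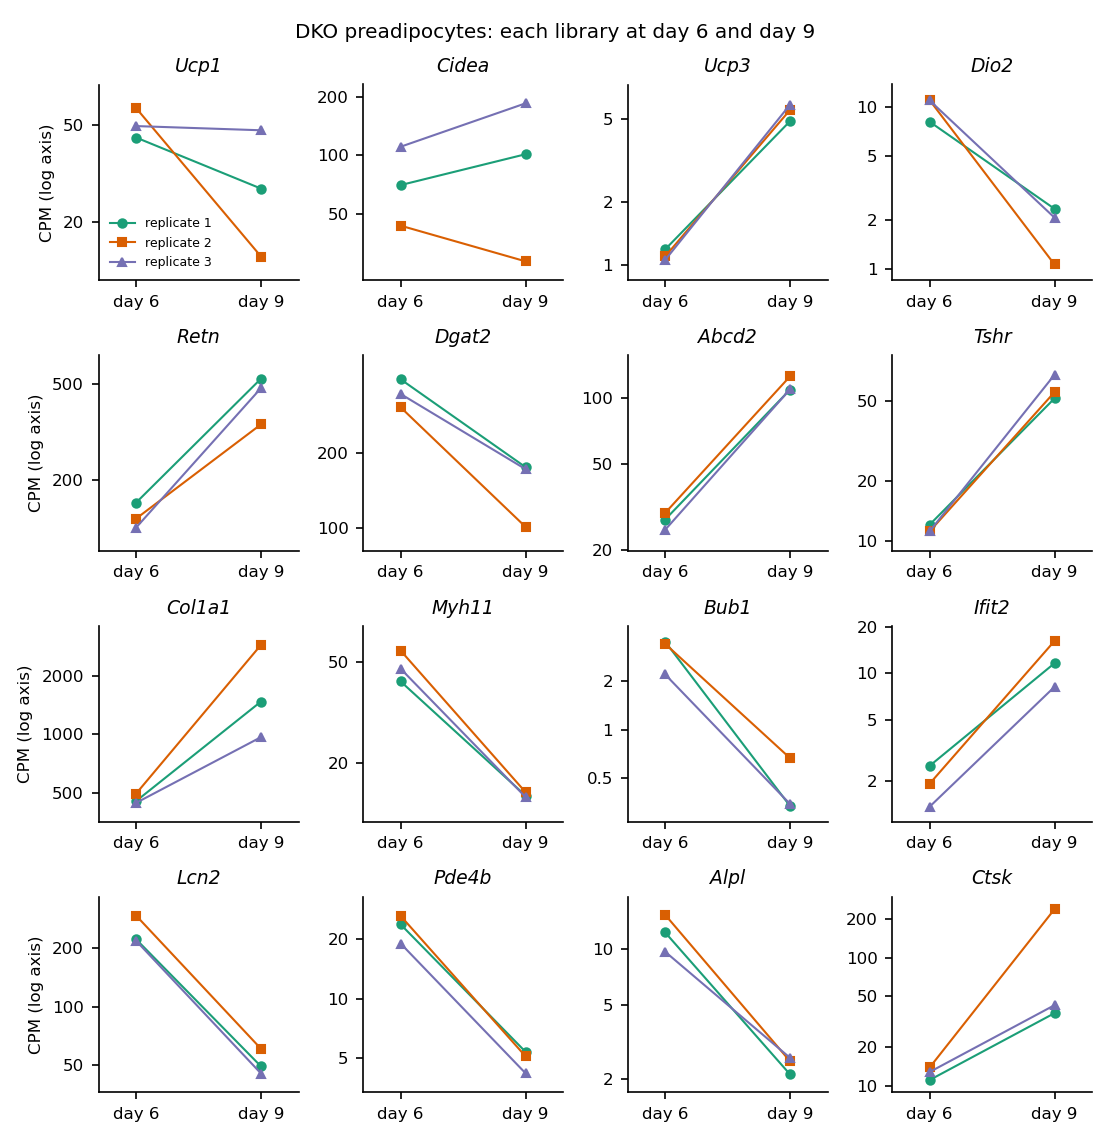
Each panel gives the CPM (log axis) of 1 gene in the 3 day 6 and the 3 day 9 DKO libraries, with lines joining same-numbered libraries (circles, squares and triangles for replicates 1, 2 and 3). The lines of Abcd2, Tshr, Ucp3, Lcn2 and Myh11 run together, while Cidea, Col1a1 and Ctsk separate replicate 2 from the others at day 9. For Ucp1 the 3 day 9 libraries all lie apart.

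Some hormone and lipid droplet genes of the mature adipocyte were among those that rose. Of 23 tested lipid droplet and lipolysis genes 4 were called higher and 1 lower (median log2 fold change 0.06), and 1 to 4 were higher without 1 library. The medians of these genes over same-numbered libraries were 0.165, -0.327 and 0.165 in replicates 1, 2 and 3. Of 33 tested genes of the general adipocyte list 7 were called higher and 1 lower (median log2 fold change 0.20), and 3 to 7 were higher without 1 library, the fewest without day 6 replicate 3. Retn, which encodes the hormone resistin, had 160.5, 138 and 126 CPM at day 6 and 524, 339 and 479 CPM at day 9 (1.66 ± 0.18, adjusted p = 0.00446, edgeR). Cfd, the secreted protease adipsin, rose from 27.9, 41.7 and 25.7 to 123, 95.3 and 148 CPM (1.95 ± 0.22, adjusted p = 0.00568). For both genes the lowest day 9 library, replicate 2, was more than 2-fold above the highest day 6 library. Pnpla3, a lipase of the droplet surface, rose from 18.4 ± 1.55 to 35.5 ± 1.83 CPM (n = 3 per day). Cidec, which enlarges lipid droplets, and Gpd1, which makes glycerol 3-phosphate, rose by 0.95 and 0.85 on the log2 scale (adjusted p = 0.0289 and 0.0127), and Plin4 was also called higher. The call of Plin4 (0.59) was lost in 5 of the 6 refits that leave out 1 library (adjusted p up to 0.107). The classical markers Fabp4, Adipoq, Pparg and Plin1 were not called, at log2 fold changes of 0.21, 0.35, 0.20 and -0.28 (adjusted p = 0.376, 0.188, 0.298 and 0.148).

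In lipid synthesis, Me1, Thrsp, Mlxipl and Gpd1 rose and Dgat2 fell. Among 26 tested synthesis genes 4 were called higher and 1 lower (median 0.22), and 2 higher without day 6 replicate 3. Me1, malic enzyme, which makes NADPH for lipid synthesis, had 539.9, 787 and 600.0 CPM at day 6 and 1377, 1937 and 1526 CPM at day 9 (adjusted p = 0.00774, edgeR). Thrsp, a lipogenic protein induced by thyroid hormone, rose from 519 ± 46 to 1059 ± 126 CPM, and Mlxipl, the glucose-sensing transcription factor ChREBP, from 38.7 ± 3.65 to 66.2 ± 10.6 CPM. The call of Mlxipl was lost without day 6 replicate 3 (adjusted p = 0.0584). Dgat2, which adds the last acyl chain to triglyceride, had 398, 307 and 347 CPM at day 6 and 176, 101 and 173 CPM at day 9 (-1.23 ± 0.23, adjusted p = 0.0175, and up to 0.0613 without day 6 replicate 1 or 3). Hilpda, an inhibitor of the triglyceride lipase ATGL, fell with tight replicates from 52.7, 65.6 and 52.1 to 19.8, 21.9 and 20.8 CPM (-1.45 ± 0.10, adjusted p = 0.00152). Among 27 cholesterol genes 3 were called higher (Stard4 and Fdft1 among them) and 3 lower (Ebp, Sqle and Hmgcs1), with a median of -0.14. Without day 6 replicate 3 or day 9 replicate 1 none was called higher (edgeR), and Stard4 and Fdft1 each lost their call in 4 of the 6 refits that leave out 1 library. Ebp, a sterol isomerase, had 61, 63.5 and 59.4 CPM and then 36.3, 37.3 and 37 CPM, and it had the smallest p-value of these 6.

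No gene of the respiratory chain or the TCA cycle was called. Of 77 tested nuclear genes of oxidative phosphorylation 0 were called (edgeR), with log2 fold changes between -0.27 and 0.38 and a median of 0.07. The 23 genes of the TCA cycle (-0.38 to 0.42) and the 13 mitochondrially encoded genes (-0.51 to 0.16) gave 0 calls as well, and so did the replicate block, DESeq2 and limma-voom in all 3 lists. An unadjusted p under 0.05 was seen for 1 gene in each list, and without day 9 replicate 3 a mitochondrially encoded gene was called lower. These lists nevertheless differed between replicates, since the median over the oxidative phosphorylation genes was 0.15, -0.25 and 0.26 in replicates 1, 2 and 3. Of 26 genes of mitochondrial beta-oxidation, Acot2 was called higher and Acadl, the long-chain acyl-CoA dehydrogenase, lower (-0.70 ± 0.14, adjusted p = 0.0185). The call of Acadl was lost without day 6 replicate 2 or 3 or day 9 replicate 1 (adjusted p up to 0.0831). Peroxisomal genes went both ways. Abcd2, which imports very long-chain fatty acids, had 27.6, 29.6 and 24.8 CPM at day 6 and 109, 126 and 109.5 CPM at day 9 (2.07 ± 0.10, adjusted p = 0.000896), the smallest p-value of all 14558 genes. Amacr, a racemase of branched-chain fatty acid oxidation, had 45, 64.8 and 53 CPM and then 24.8, 23.8 and 28.2 CPM, and it fell by 1.08 on the log2 scale (adjusted p = 0.00571). The 36 peroxisome genes gave 2 higher calls (Abcd2 and Acaa1b, a thiolase) and 3 lower (Amacr, Acox3 and Pecr), with a median of -0.07. Over all tested genes 6.78% were called higher and 2.92% lower. The calls of Acox3 and Pecr were each lost in at least 4 of the 6 refits that leave out 1 library (adjusted p up to 0.0845 and 0.153).

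The type I collagen chains rose, and by how much collagens differed depended on the library that stands apart. Of 18 collagens 4 were called higher (Col1a1, Col1a2, Col5a3 and Col16a1) and 1 lower, and the median log2 fold change was 0.54. No collagen was called higher (edgeR) without any 1 of the 3 day 6 libraries or without the filter on low counts, 2 were without day 9 replicate 1, and 7 were without day 9 replicate 3, with a median of 0.87. The median was 0.14 without day 9 replicate 2, with 3 called in each direction, and 8 higher and 1 lower were called with the replicate block. Col1a1 (chromosome 11, 94936224 to 94953042, plus strand), which encodes the main chain of type I collagen, had 452, 494 and 442 CPM at day 6 and 1471, 2882 and 965 CPM at day 9 (1.94 ± 0.39, adjusted p = 0.0217, edgeR). The day 6 libraries were alike, and the day 9 libraries were spread over a 3-fold range but all above them. Its partner Col1a2 had 805, 817 and 676 CPM and then 1906, 3268 and 1293 CPM (adjusted p = 0.0287). Both calls were lost without any 1 of the 3 day 6 libraries, that of Col1a2 also without day 9 replicate 1 (adjusted p up to 0.0812 and 0.103). Col3a1 was not called (2130.0, 3244 and 2011 CPM at day 6 and 2409, 6671 and 1831 at day 9, adjusted p = 0.469), and its log2 fold change of 0.57 turned to -0.21 without day 9 replicate 2. Col15a1, a collagen of the basement membrane zone, fell from 448 ± 43.1 to 248 ± 37.6 CPM (adjusted p = 0.0103).

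Among 36 glycoproteins and crosslinking enzymes of the matrix 7 were called higher and 2 lower (median 0.57, and 0.25 without day 9 replicate 2). With the replicate block 17 were higher and 4 lower, and without 1 library 2 to 11 were higher, the fewest without day 6 replicate 3. Mfap5, a glycoprotein of elastic microfibrils, rose from 23.4, 27.2 and 17.8 CPM to 81.9, 135 and 62.7 CPM (2.04 ± 0.31, adjusted p = 0.0108, edgeR), and Lama2, a laminin chain of basement membranes, from 53.4 ± 7.04 to 129 ± 33.4 CPM. Lox, the lysyl oxidase that crosslinks collagen, was among the more abundant, with 1139, 1172 and 1019 CPM at day 6 and 2654, 3446 and 2008 CPM at day 9 (adjusted p = 0.0108, and 0.0552 without day 6 replicate 3). Lum, the collagen-binding proteoglycan lumican, went the other way, from 49.1, 34.6 and 41.6 to 18.1, 9.33 and 11.1 CPM (adjusted p = 0.0119). Of 20 proteases and inhibitors 3 were called higher and 1 lower, and 9 and 3 with the block. Without any 1 of the 3 day 6 libraries or day 9 replicate 1 there was 1 higher, without day 9 replicate 3 there were 6, and the median of 0.50 was 0.27 without day 9 replicate 2. Adamts15 fell from 224, 217 and 174 CPM to 66.7, 63.8 and 42.2 CPM (adjusted p = 0.00472), whereas Adamts5, which cleaves the same class of proteoglycans, rose from 88.5 ± 15.2 to 268 ± 119 CPM, a call lost without any 1 of the 3 day 6 libraries or day 9 replicate 1 (adjusted p up to 0.0792). Mmp2 was not called (log2 fold change -0.00 ± 0.18, adjusted p = 0.998). Mmp3, which degrades many matrix proteins, was lower in each same-numbered pair (35.4, 87.8 and 37.2 CPM at day 6 and 16.9, 43.8 and 14.5 at day 9) and was called with the block only (adjusted p = 0.000116 against 0.209).

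Of 14 contractile genes of smooth muscle 6 were called higher and 1 lower, with a median of 0.80 (0.63 without day 9 replicate 2). This was the highest share of higher calls of the 29 lists by this test, but not with the replicate block (9 of 14, against 22 of 25 interferon-stimulated genes), DESeq2 (8 against 17) or 1 fit over 24 libraries (6 against 14), nor without day 6 replicate 3, day 9 replicate 1 or both libraries of replicate 2. Without 1 library 2 to 7 were higher, the fewest without day 6 replicate 3. Lmod1, which nucleates actin filaments, had 0.776, 0.385 and 0.220 CPM and then 3.31, 3.86 and 2.98 CPM, and Cnn2, a calponin, rose from 9.02 ± 2.61 to 28.9 ± 5.16 CPM (adjusted p = 0.00804 and 0.0092). Tagln, Tpm1, Tpm2 and Myl9 were also called higher. Myh11, the smooth muscle myosin heavy chain, went against them with tight replicates, 42.1, 55.6 and 47.2 CPM at day 6 and 14.9, 15.4 and 14.7 CPM at day 9 (-1.68 ± 0.11, adjusted p = 0.00132, edgeR). It had 212 ± 78.4 CPM at day 0 and 42.2 ± 37.3 CPM at day 3. Of 23 preadipocyte and progenitor genes 3 were called higher (Anxa3, Pdgfrb and Sox9) and none lower (median 0.42, and 0.14 without day 9 replicate 2), and 7 and 1 with the block. Without any 1 of the 3 day 6 libraries or day 9 replicate 1 there was 1 higher, without day 9 replicate 2 there were 2 higher and 2 lower, and without day 9 replicate 3 there were 5 higher. Anxa3, a calcium-dependent membrane-binding protein, had 27.5, 17.1 and 16.4 CPM at day 6 and 56.2, 67.6 and 39.5 CPM at day 9 (adjusted p = 0.02). Its call was lost without day 6 replicate 2 or 3 or day 9 replicate 1 or 2 (adjusted p up to 0.0703). In bulk RNA, more cells of a type and more RNA per cell cannot be told apart, here and in the lists that follow.

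**Figure D3:**
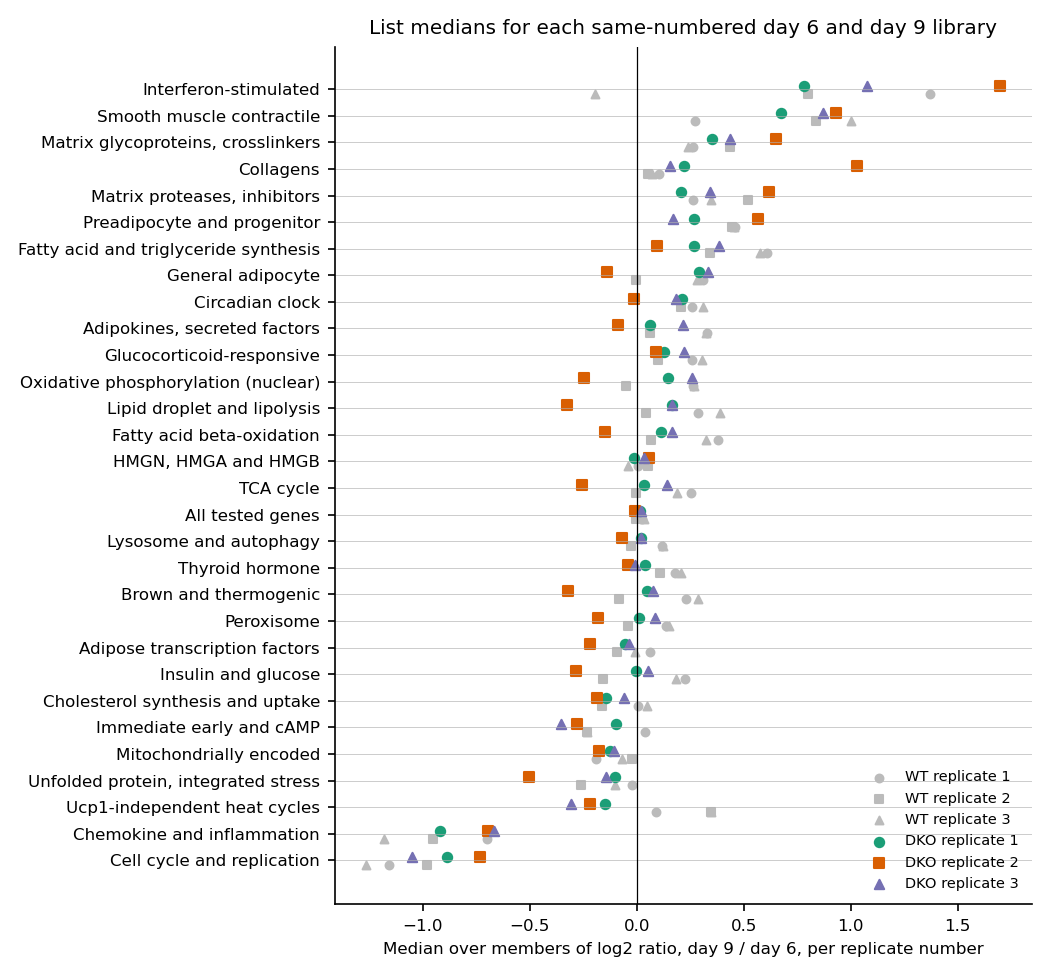
Points give, for each gene list, the median over its tested members of the log2 ratio of day 9 to day 6 between same-numbered libraries (0.5 CPM added), in DKO (coloured) and WT (grey) cells. DKO replicate 2 (orange squares) lies to the right of the other DKO replicates for collagens (1.03 against 0.22 and 0.15) and interferon-stimulated genes (1.70 against 0.78 and 1.08), and to the left for oxidative phosphorylation (-0.25 against 0.15 and 0.26).

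Genes of replication and mitosis had the largest share of lower calls of the 29 lists by this test, though not without day 6 replicate 2 or day 9 replicate 1. Of 35 tested, 18 were called lower and 1 higher, and the median log2 fold change was -0.94. It was -1.35 without day 9 replicate 2, with 22 lower. Without day 6 replicates 1, 2 and 3 the lower calls were 11, 7 and 9, and without day 9 replicate 1 they were 8. Bub1, a kinase of the spindle checkpoint, had 3.52, 3.41 and 2.20 CPM at day 6 and 0.336, 0.666 and 0.346 CPM at day 9 (-2.73 ± 0.36, adjusted p = 0.00653, edgeR), after 24.2 ± 3.23 CPM at day 3. Cenpa, the histone H3 variant of centromeres, fell from 5.25, 5.06 and 4.84 CPM to 1.68, 2.0 and 1.86 CPM (-1.45 ± 0.17, adjusted p = 0.00503). Mki67, the proliferation marker, had 18.2, 16 and 14.4 CPM and then 3.75, 5.95 and 1.82 CPM (adjusted p = 0.0182), and its highest day 9 library was replicate 2. Uhrf1, which guides the copying of DNA methylation in dividing cells, fell from 7.78 ± 1.37 to 1.95 ± 0.195 CPM and Impdh2, which makes guanine nucleotides, from 101 ± 5.14 to 58.4 ± 0.958 CPM. Both are among the 12 genes with the smallest p-values that were lower. Hmgb2, a chromatin protein of dividing cells, was called lower as well (-0.68 ± 0.13), but not without day 6 replicate 1 or 2 or day 9 replicate 1 (adjusted p up to 0.0641). Cdk2 was the gene called higher, from 13.4 ± 0.405 to 21.2 ± 1.21 CPM (adjusted p = 0.00774).

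The promoters of Bub1, Cenpa and Ccnb1 are shown because these genes fell and each holds the CCAAT box, to which the factor NF-Y binds, 2 times in the 250 bases before the start. The box is in capitals, as CCAAT or, on the other strand, ATTGG. The windows are chr2:127831860-127832109, minus strand (Bub1), chr5:30666636-30666885, plus strand (Cenpa) and chr13:100786487-100786736, minus strand (Ccnb1), in mm10, and the sequences are from RefSeq (GRCm38.p6).
Bub1: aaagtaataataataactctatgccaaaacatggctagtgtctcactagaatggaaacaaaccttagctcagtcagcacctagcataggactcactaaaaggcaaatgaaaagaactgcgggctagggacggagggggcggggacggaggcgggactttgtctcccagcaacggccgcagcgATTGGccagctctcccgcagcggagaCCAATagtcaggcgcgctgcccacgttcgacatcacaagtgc
Cenpa: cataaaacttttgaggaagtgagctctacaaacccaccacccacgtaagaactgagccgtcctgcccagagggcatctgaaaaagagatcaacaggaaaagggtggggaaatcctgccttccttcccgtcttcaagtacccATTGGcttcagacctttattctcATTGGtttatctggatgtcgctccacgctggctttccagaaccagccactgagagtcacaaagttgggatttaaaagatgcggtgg
Ccnb1: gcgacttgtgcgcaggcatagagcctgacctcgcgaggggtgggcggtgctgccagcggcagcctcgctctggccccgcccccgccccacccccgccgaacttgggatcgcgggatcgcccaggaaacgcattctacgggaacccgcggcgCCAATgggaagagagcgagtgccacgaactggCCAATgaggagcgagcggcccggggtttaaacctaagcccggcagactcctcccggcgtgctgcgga
Searched on both strands, CCAAT was in 12 of the 17 genes called lower that had a promoter in the table (70.6%), in 10 of the 12 that were tested and not called (83.3%), and in 37.5% of all 27025 genes. The share with a box was thus not higher in the cell cycle genes that fell than in those that were not called. The letters TTTGAA, the core of the CHR element of mitotic genes, were in 4 of the 17 (23.5%), 4 of the 12 (33.3%) and 18.3% of all genes, and TTCCCGCC, a form of the E2F site, in 0 of the 17, 1 of the 12 and 2.1% of all genes.

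Genes that respond to the inducers of the first medium went both ways. Pde4b, a phosphodiesterase that cyclic AMP induces and that degrades it, had 23.7, 26.2 and 19 CPM at day 6 and 5.38, 5.11 and 4.19 CPM at day 9 (-2.23 ± 0.16, adjusted p = 0.00152, edgeR). Of 20 immediate early and cyclic AMP genes 5 were called lower, namely Pde4b, Pde4d, Nr4a1, Nr4a3 and Egr2, and 2 higher, Sik1 and Fosl1 (median -0.16). Without day 6 replicates 1, 2 and 3 the lower calls were 2, 3 and 2, and 1 gene was called higher in each refit that leaves out 1 library except that without day 9 replicate 3. The call of Nr4a3 (-2.17) was lost without day 6 replicate 3 (adjusted p = 0.0501). Fos was called only with the block (higher, adjusted p = 5.17e-05) and varied widely, with 16.6, 11.5 and 4.45 CPM at day 6 and 73.3, 47.2 and 12.5 CPM at day 9 (adjusted p = 0.0971 without the block). Glucocorticoid-responsive genes went both ways, 3 of 23 higher and 3 lower (median 0.14, and 1 to 5 higher without 1 library, the fewest without day 6 replicate 3), the lower ones being Lcn2 and the metallothioneins Mt1 and Mt2. Sult1a1, a sulfotransferase, rose from 50.5, 63 and 40.7 to 159, 178 and 168 CPM (adjusted p = 0.00241), whereas Fkbp5 and Tsc22d3, which dexamethasone induces in most cells, had log2 fold changes of -0.04 and 0.37 and were not called (adjusted p = 0.923 and 0.293). Of 12 thyroid hormone genes, Me1 and Thrsp were called higher and Dio2 lower, T3 being present in both media. Of 29 genes of the unfolded protein and integrated stress responses none was higher and 3 were lower (6 with the block, 0 without day 6 replicate 2, 1 without day 6 replicate 3 or day 9 replicate 1, median -0.20), namely Slc7a11, Gdf15 and Mthfd2. Each of these 3 calls was lost in at least 4 of the 6 refits that leave out 1 library (adjusted p up to 0.119, 0.107 and 0.122).

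Among inflammatory genes, the chemokines Cxcl14 and Ccl11 fell together with Lcn2, Saa3 and Ptgs2. Of 16 tested chemokine and inflammation genes 6 were called lower (4 to 8 without 1 library) and 2 higher, and the median log2 fold change was -0.70. Lcn2, a siderophore-binding secreted protein, had 221, 293 and 218 CPM at day 6 and 49.3, 60.7 and 45.3 CPM at day 9 (-2.23 ± 0.16, adjusted p = 0.00152, edgeR). Saa3, an acute-phase apolipoprotein, had 1404, 489 and 1107 CPM and then 186, 68 and 126 CPM (adjusted p = 0.0148), and replicate 2 was the lowest library of both days. Cxcl14 fell from 29.5, 52.4 and 18.9 CPM to 3.46, 7.11 and 1.73 CPM (adjusted p = 0.0185), and Ptgs2, the inducible cyclooxygenase, from 3.70 ± 0.323 to 1.37 ± 0.0640 CPM. Hp, haptoglobin, and C4b were the 2 called higher, and the call of Hp was lost without day 6 replicate 1 or 3 (adjusted p up to 0.0963). Of 14 tested macrophage markers 0 were called (edgeR, and 0 had an unadjusted p under 0.05), DESeq2 called 1 lower, the block called 1 higher and 4 lower, and the median was -0.05. Lyz2, the most abundant, was lower in each same-numbered pair, with 3089, 1568 and 2157 CPM at day 6 and 1892, 919 and 1165 CPM at day 9 (adjusted p = 0.17, and 0.000462 with the block, called lower). The summed level of all 15 markers was lower at day 9 in each same-numbered pair, and its part in the fall of the inflammatory genes was not tested.

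Values of interferon-stimulated genes were higher at day 9. All 25 tested genes had a positive log2 fold change (0.17 to 3.18, median 1.59), against 7460 of all 14558 tested genes. Of these, 5 were called, 22 with the replicate block and 17 with DESeq2, none of them lower. Without day 6 replicates 1, 2 and 3 the count was 2, 2 and 1. Ifit2, which binds foreign RNA and blocks its translation, had 2.51, 1.92 and 1.36 CPM at day 6 and 11.6, 16.2 and 8.17 CPM at day 9 (2.63 ± 0.33, adjusted p = 0.00607, edgeR). Gbp2, a guanylate-binding protein, had 2.33, 5.83 and 2.51 CPM and then 13.4, 24.4 and 13.7 CPM, and its call was lost without day 6 replicate 1 or 3 (adjusted p up to 0.0666). Oas2, Psmb8 and Ddx58 were the other genes called. Ifit1 had 0.685, 2.47 and 0.660 CPM at day 6 and 2.50, 27.3 and 3.33 CPM at day 9 and was called only with the block (adjusted p = 0.00057 against 0.0986), and replicate 2 was far above the others at both days. Without day 9 replicate 2 the median was 0.92 with 6 genes called, and without both libraries of replicate 2 it was 1.27 with 12 called. At day 0 Ifit2 had 25.7 ± 3.0 CPM, above both days compared here. The summed level of the macrophage markers was lowest in replicate 2 at both days, the replicate in which Ifit1 was highest. Any relation between the macrophage markers and the interferon-stimulated genes was not tested.

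**Figure D4:**
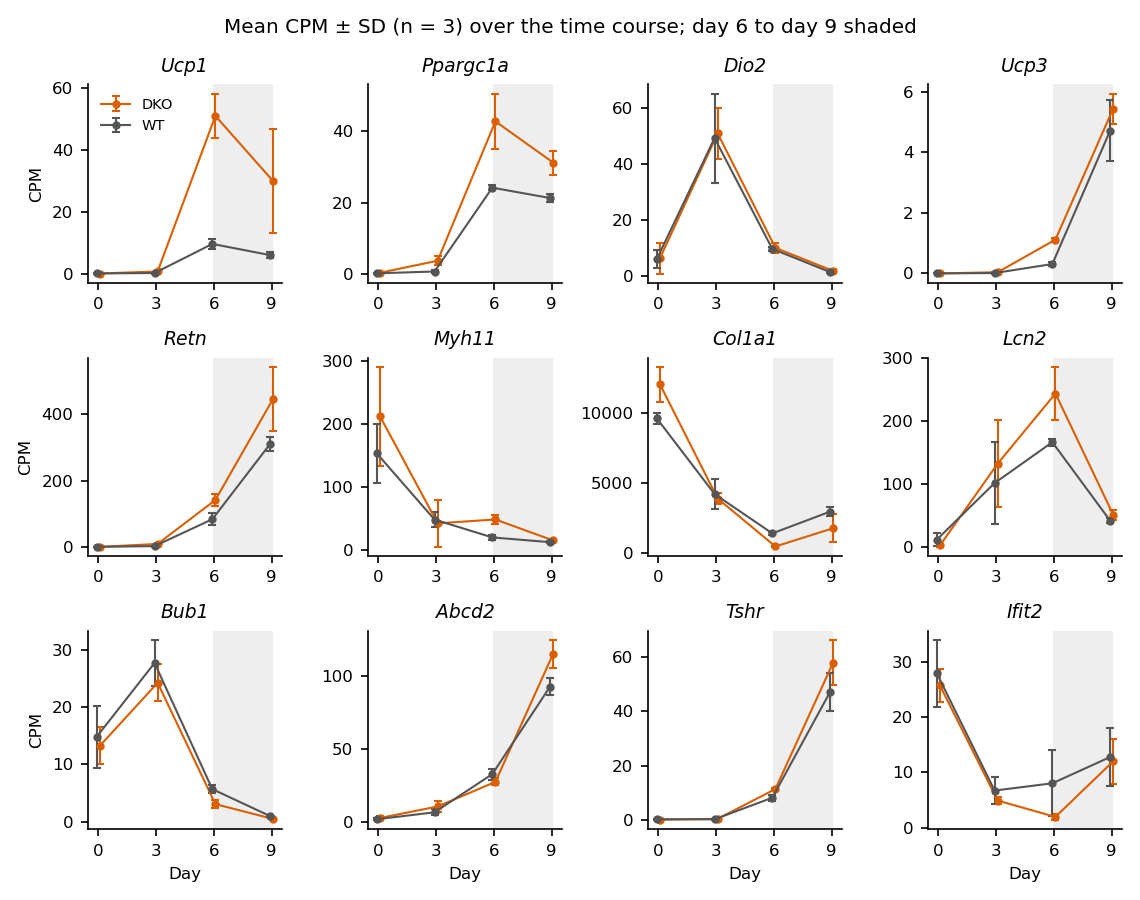
Mean CPM with SD (n = 3 libraries) of 12 genes at days 0, 3, 6 and 9 in DKO (orange) and WT (grey) cells, with the step from day 6 to day 9 shaded. Abcd2, Tshr, Retn and Ucp3 have their highest mean at day 9 in both genotypes, while the DKO means of Ucp1, Ppargc1a and Lcn2 are highest at day 6 and those of Dio2 and Bub1 at day 3.

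Of the chromatin proteins related to HMGN1 and HMGN2, Hmgn5 rose from 25.4, 24.2 and 26.8 CPM to 37.2, 42.2 and 37.4 CPM (0.61 ± 0.09, adjusted p = 0.00935, edgeR), and its fold change dropped under 1.5 without replicate 2 of either day. Hmgn3 was not called (0.49 ± 0.20, adjusted p = 0.142). Hmga2, an architectural protein of embryonic and proliferating mesenchymal cells, had 3.20, 3.19 and 1.76 CPM and then 7.25, 11.3 and 6.40 CPM (adjusted p = 0.0177), and it was not called without day 6 replicate 2 or 3 (adjusted p up to 0.0577). Among 31 transcription factors of adipose fate Klf4 was called higher (28, 18.5 and 22.3 CPM at day 6 and 68, 83 and 45 at day 9, adjusted p = 0.0152, and 0.0587 without day 6 replicate 3) and Esrrg lower, with a median of -0.10. Prdm16 and Ebf2, which set brown identity, had log2 fold changes of -0.45 and -0.23 (adjusted p = 0.172 and 0.554). Of 19 clock genes 3 were called higher and 0 lower (median 0.17, and 1 lower with the block), with 1 higher without any 1 of the 3 day 6 libraries or day 9 replicate 1 and 2 without day 9 replicate 2. Among them was Cry2 (27.3 ± 1.86 CPM at day 6 and 45.1 ± 5.34 at day 9, adjusted p = 0.00842). Among 22 adipokines and secreted factors 6 were higher and 3 lower (median 0.17), and 4 higher and 1 lower without day 9 replicate 1. Rarres2, the adipokine chemerin, rose from 139 ± 10.8 to 277 ± 21.6 CPM and Igfbp4, which binds insulin-like growth factors, fell from 264 ± 60.1 to 123 ± 21.3 CPM (adjusted p = 0.00325 and 0.0138). The lysosomal genes gave 3 higher calls among 32 (median 0.00), 0 to 4 without 1 library and none without day 6 replicate 1 or 3 (edgeR), of which Ctsk, the collagen-degrading cathepsin K, had 11.1, 13.9 and 12.8 CPM at day 6 and 36.9, 239.7 and 42.5 CPM at day 9. Replicate 2 of day 9 was far above the others, and Ctsk was not called with the block (adjusted p = 0.118 against 0.0423) or without any 1 of the 3 day 6 libraries (adjusted p up to 0.127). Of 31 insulin and glucose genes 1 was higher, Aldoc, and 1 lower, Trib1 (median -0.10). Beside the lists of this paragraph, the shares over all tested genes were 6.78% higher and 2.92% lower.

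The genes with the smallest p-values over the whole table include hormone receptors, insulin signalling proteins and proteins of no list. Tshr, the receptor for thyroid-stimulating hormone, which adipocytes also express, had 12.1, 11.2 and 11.2 CPM at day 6 and 51.3, 55.1 and 67.2 CPM at day 9 (2.33 ± 0.12, adjusted p = 0.000896, edgeR). Irs3, an insulin receptor substrate of rodent adipocytes, rose from 0.959, 1.21 and 1.06 CPM to 7.35, 9.37 and 10.5 CPM (3.08 ± 0.20, adjusted p = 0.00132). Pltp, which transfers phospholipid between lipoproteins, rose from 24.7 ± 1.74 to 83.7 ± 10.2 CPM. Lrrc39, a protein of the sarcomere, Nrep and Clmn rose by 2.75, 2.23 and 2.31 on the log2 scale from levels under 6 CPM. Dixdc1, Phldb1, S100a13, Ablim1 and Plbd1 complete the 12 that rose, at log2 fold changes between 1.06 and 1.83. Of the genes that fell, Pcsk1, a prohormone convertase, had 12.9, 13.1 and 12.4 CPM and then 2.26, 3.15 and 2.68 CPM (-2.24 ± 0.16, adjusted p = 0.00152). Ret, the receptor tyrosine kinase of GDNF ligands, fell from 6.29 ± 0.630 to 1.46 ± 0.203 CPM, and Tlcd2, a membrane protein that affects membrane fluidity, from 268 ± 24.8 to 124 ± 7.83 CPM. All 24 genes of these 2 sets remained called in each of the 6 refits that leave out 1 library.

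The last comparison asked whether the step differs between the genotypes. In WT cells, which share no library with the DKO comparison, 983 of the 987 genes called higher in DKO cells had a positive log2 fold change (median 1.115 against 1.177 in DKO cells), and 421 of the 425 called lower had a negative one (median -1.04 against -1.08). These genes were selected by their fold change in DKO cells, which enlarges the DKO medians only, so the sizes of the medians cannot be compared. Over all 14558 genes 50.8% were positive in WT cells. The interaction of genotype and day, fitted on 12 libraries, called 0 of 15410 genes with edgeR, and 846 had an unadjusted p-value under 0.05. DESeq2 called 28 (2 with a higher and 26 with a lower log2 fold change in DKO than in WT cells). With edgeR, leaving out 1 library gave 0 to 13 calls, the most without WT day 6 replicate 2. The smallest adjusted p was 0.175, for Nupr1, a stress-induced chromatin protein, which had 100.4, 90.2 and 84.5 CPM at day 6 and 64.9, 59.5 and 59.7 CPM at day 9 in DKO cells but 48, 53.6 and 43.4 and then 62.1, 57 and 62.1 CPM in WT cells. The next 3 of the named genes were Anxa8 (difference of log2 fold changes -1.11 ± 0.17), P2rx5 (-1.18 ± 0.18) and Ablim1 (-0.70 ± 0.11), each at an adjusted p of 0.181. Ucp3 rose in DKO cells by 2.28 and had a log2 fold change of 3.89 in WT cells, a difference of -1.62 ± 0.30 that did not pass (adjusted p = 0.264), and Alpl had -2.36 in DKO and -3.74 in WT cells (adjusted p of the difference 0.305). Ucp1 had log2 fold changes of -0.77 in DKO and -0.69 in WT cells, with a difference of -0.09 ± 0.50. For the cell cycle list the median was -0.94 in DKO and -1.46 in WT cells, for the collagens 0.54 and 0.08, and for the interferon-stimulated genes 1.59 and 0.74. The last of these varied in WT cells as well, with medians of 1.37, 0.80 and -0.20 in WT replicates 1, 2 and 3. None of these list differences was tested.

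**Figure D5:**
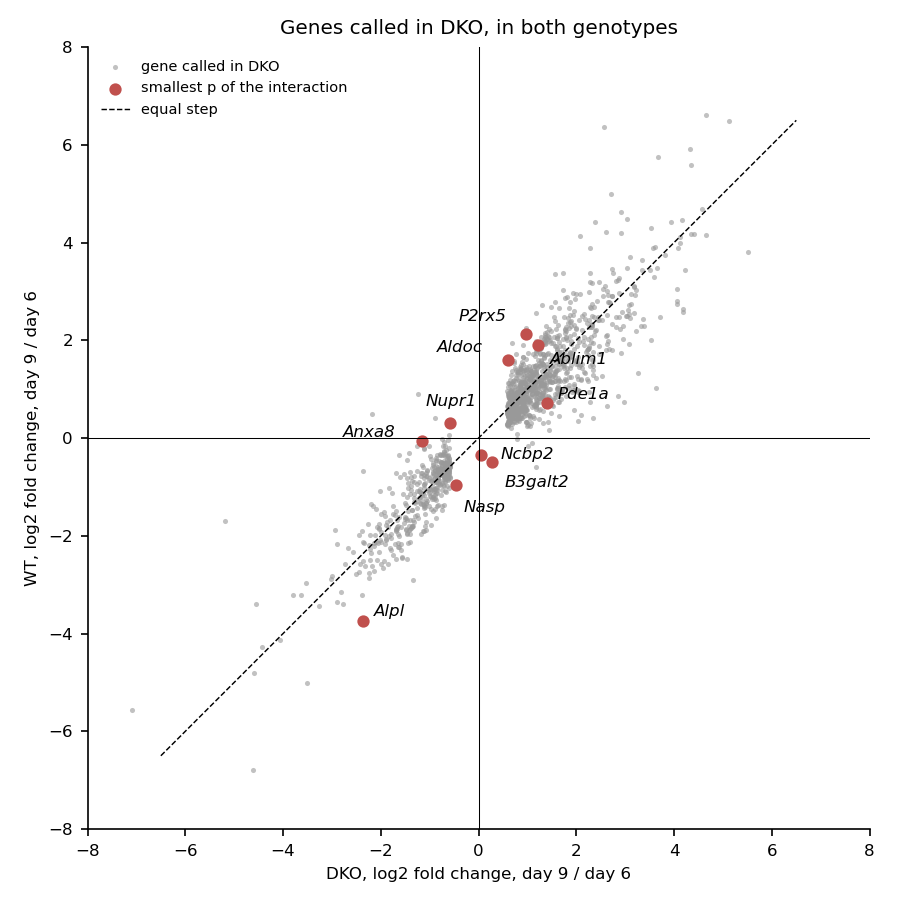
Each grey point is 1 of the 1412 genes called in DKO cells, with the log2 fold change from day 6 to day 9 in DKO cells on the x axis and in WT cells on the y axis, and the dashed line marks equal steps. Red points are the 10 genes named for the smallest p-values of the interaction, 4 of which (Nupr1, Ncbp2, Nasp and B3galt2) were not called in DKO cells, and Nupr1 lies on opposite sides of 0 in the 2 genotypes.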

How the data were processed

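RNA-seq libraries of DKO preadipocytes at day 6 and day 9 (3 each) were compared, with 6 WT libraries of the same days for the interaction. The authors trimmed reads (cutadapt 1.18), aligned them to mm10 (STAR 2.7.0f) and estimated reads per gene (RSEM 1.3.0), per the submitters' processing notes, and deposited the resulting expected counts, not normalized. Reads shared by near-identical genes are apportioned by the model, so paralogs are less certain. The molecule is labelled polyA RNA, while the paper's methods name a total RNA kit. All 55450 genes matched GENCODE M21, the source of positions.

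Expected counts were rounded, filtered (filterByExpr), scaled with TMM and tested with edgeR 4.0.16 (R 4.3.3, robust quasi-likelihood, day as the only term), with Benjamini-Hochberg adjustment over all genes tested. WT steps come from the fit over 12 libraries. CPM use TMM factors over all 24 preadipocyte libraries. Standard errors are of log2 fold changes, and errors of CPM are SD. Both include the spread between libraries, while the floor of 3 counts for markers covers counting error only. Replicates of a day differed by more than sampling noise (chi-square per degree of freedom 19.1 to 71.3).

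Alternatives were DESeq2 1.42.0, limma-voom 3.58.1 with quantile normalization, library size only, other filters and thresholds, 1 fit over 24 libraries, the replicate block and leaving out each library. Leaving out both libraries of replicate 2 was added after the data were seen. Same-numbered DKO libraries of the 2 days deviated together (correlations 0.376, 0.394 and 0.293 over 15410 genes), so the numbers pair them, a pairing taken from the data. Tests were first checked on simulated counts.

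The members, lists and tests were chosen with earlier results of these data known. Named genes are the HMGN family, genes the study names for bulk RNA-seq, per list up to 3 called genes with the smallest p in the leading direction and 1 in the other without overlap of libraries, the 12 called genes per direction with the smallest p overall (at least 5 CPM, predicted genes left out), and, likewise, the 5 per direction for the interaction. Other genes were named after their values were seen, and some genes that the rule names are not reported here. Promoter motifs were searched in 250 bases before RefSeq starts. The fibroblast libraries were not analysed here.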

Additional observations from a re-analysis of the deposited data

Results flagged for a closer look

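Nupr1 moved in opposite directions in the 2 genotypes. Each DKO library of day 9 was below each of day 6 (64.9, 59.5 and 59.7 CPM against 100.4, 90.2 and 84.5 CPM), and each WT library of day 9 was above each of day 6 (62.1, 57 and 62.1 CPM against 48, 53.6 and 43.4 CPM). The log2 fold change was -0.58 in DKO and 0.31 in WT cells. The interaction of genotype and day was -0.90 and did not pass the threshold over all 15410 genes (adjusted p = 0.175, edgeR), although it had the smallest p-value of the table.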

How the results depend on the processing

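The number of genes called in DKO cells (1412) was 2295 with no fold change threshold, 823 with a log2 fold change of at least 1 and 2266 with the replicate block, and leaving out 1 library gave 566 to 1428. It stayed within 1.5 times 1412 under DESeq2 (1743), library size alone (1378), limma-voom (1432), both other filters (1457 and 1423), 1 fit over 24 libraries (1853) and without both libraries of replicate 2 (1254). Without 1 library, 364 to 1042 genes were called higher and 202 to 500 lower. The interaction, which called 0 genes, gave 41 with the replicate block (14 with a higher and 27 with a lower log2 fold change in DKO cells), 28 with DESeq2 and 1 when no low-count filter was applied. Leaving out 1 library gave 0 to 13, with 13 without WT day 6 replicate 2, 3 without DKO day 9 replicate 2 and 1 without DKO day 6 replicate 2. The WT numbers did not all pair (correlations 0.368, 0.226 and 0.097), so in that fit the numbers are not taken as pairs.

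Over all named genes and settings, 1417 values kept their direction and side of the threshold, 201 no longer passed it, 11 newly passed it and 9 changed sign. The signs that changed belong to genes that were not called. Leaving out 1 library gave -0.21 to 0.93 for Cidea, -0.17 to 0.26 for Cox7a1, -0.21 to 0.90 for Col3a1, -0.57 to 0.94 for Ear2 and -0.24 to 0.13 for Mmp2, and Ear2 was -0.006 with limma-voom. The cause was not tested. With the replicate block the call of Ctsk was lost and those of Mmp3, Ppara, Fos, Ifit1, Lyz2, C1qa and C1qb gained. No other call of a gene named in the text changed. List medians moved by no more than the spread between replicates in 414 of 448 refits.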

Other observations

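A set of 60 genes of ribosome biogenesis was lower at day 9 in DKO cells almost throughout. This list and the 2 that follow were written after the values were seen, so their counts describe these libraries and support nothing. Of the 60 genes, 58 had a negative log2 fold change (median -0.40, range -0.87 to 0.04), 8 were called lower and none higher (edgeR). Nop56, a core protein of small nucleolar ribonucleoproteins, had 78.6, 90.4 and 76.4 CPM at day 6 and 47.4, 44.8 and 41.6 CPM at day 9 (log2 fold change -0.87 ± 0.09, adjusted p = 0.00366). Pdcd11, Bop1 and Rrs1, which act in ribosomal RNA processing and subunit assembly, fell by 0.64, 0.60 and 0.60 on the log2 scale. The medians over same-numbered libraries were -0.31, -0.51 and -0.34 in replicates 1, 2 and 3, and the WT median was -0.43.

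Calcium-binding annexins and S100 proteins were mostly higher. Of 18 tested genes 10 were called higher and 1, Anxa8, lower (median 0.70, WT 0.85), and 17 had a positive log2 fold change. S100a4, a marker of fibroblasts and other motile cells, had 23.7, 15.8 and 8.94 CPM at day 6 and 119, 172 and 77.5 CPM at day 9 (2.93 ± 0.43, adjusted p = 0.0103, edgeR), and S100a6 had 139.9, 143 and 79.5 CPM and then 325, 422 and 237 CPM. Complement genes went both ways, with 5 of 20 called higher, among them Cfd, C4b and C1ra, and 2 lower, among them C7 (median 0.26). With the replicate block 8 were higher and 5 lower, and the added lower calls include C1qa and C1qb, which macrophages express.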
